A study of Homo sapiens with 12 samples.

Results

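The 81 cytosolic ribosomal protein genes are described here in HL-60 cells treated with all-trans retinoic acid (ATRA), palbociclib or both. They were chosen by name from the 58233 genes of the expression table: RPSA, RPLP0, RPLP1, RPLP2, and every symbol that starts with RPL or RPS and continues with digits and at most 1 suffix A, L or X. The rule used no measured value and leaves out pseudogenes. HL-60 is a long-established line of human acute myeloid leukaemia, labelled wild type and grown in RPMI medium with foetal calf serum. RNA sequencing of poly(A) RNA was performed on 12 libraries, with 3 libraries each from untreated cells, cells treated with 100 nM ATRA, cells treated with 500 nM palbociclib and cells treated with the combination of the same doses, all at 3 h. ATRA activates retinoic acid receptors, and palbociclib inhibits the cell cycle kinases CDK4 and CDK6. All cells are of 1 cell line, and no label says whether the replicates were separate cultures, so the p-values measure only the spread between these libraries, which may be technical.

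Ribosomal proteins bind ribosomal RNA to form the small (40S) and the large (60S) subunit of the ribosome, and proliferating cells spend much of their messenger RNA on them. Their messages are short and abundant, and most start with a run of pyrimidines, the terminal oligopyrimidine (TOP) motif, through which mTOR signalling controls their translation. Their transcription and ribosome assembly are promoted by the transcription factor MYC, whose level falls when HL-60 cells differentiate.

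All 81 genes matched GENCODE v44 on GRCh38. They lie on 21 chromosomes, with 12 on chromosome 19, and their canonical transcripts have a median length of 785 bases, with 46 under 1000 bases. Within 28 of the genes lie 60 genes of small nucleolar RNAs, the guides of ribosomal RNA modification, with 5 in RPL4. To look for a run of pyrimidines in the genes that the results turn on, the 30 bases from 10 before to 20 after the annotated start are printed in the direction of the gene. The longest run of C or T is in capitals, whether or not it is a TOP motif (RefSeq, GRCh38.p14). The first 5 genes had the highest log2 fold changes or the lowest p-values between the combination and untreated cells, the next 2 were among the most abundant, and the last 3 had the lowest log2 fold changes in this comparison.
RPL13A, chr19:49487598-49487627, plus strand: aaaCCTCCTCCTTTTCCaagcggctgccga
RPS9, chr19:54200848-54200877, plus strand: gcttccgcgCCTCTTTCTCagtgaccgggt
RPL10A, chr6:35468391-35468420, plus strand: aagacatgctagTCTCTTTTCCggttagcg
RPL12, chr9:127451387-127451416, minus strand: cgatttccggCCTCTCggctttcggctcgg
RPL3, chr22:39319604-39319633, minus strand: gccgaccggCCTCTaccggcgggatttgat
RPL41, chr12:56116623-56116652, plus strand: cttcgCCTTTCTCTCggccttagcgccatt
RPS12, chr6:132814559-132814588, plus strand: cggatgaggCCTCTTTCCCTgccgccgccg
RPS26, chr12:56041908-56041937, plus strand: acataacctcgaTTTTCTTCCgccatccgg
RPL17, chr18:49492446-49492475, minus strand: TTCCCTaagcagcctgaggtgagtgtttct
RPL35, chr9:124861938-124861967, minus strand: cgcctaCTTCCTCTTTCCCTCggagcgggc

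The run had 14 bases in RPL13A, 10 in RPS9 and RPL10A, 6 in RPL12 and 5 in RPL3, and RPL35 held a run of 15 bases. In RPL17 it had 6 bases, which lay wholly before the annotated start. RPL12, RPL3 and RPL17 thus fell short of the 8 bases counted next. Starts on chromosome 8 were left out for the ribosomal protein genes, but not for the sets they are compared with. With this, starts were available for 64 of the 81 genes. On the strand of the gene, 53 of these 64 genes (82.8%) had a run of at least 8 C or T bases at 1 or more of their starts, and 56 of their 79 starts (70.9%) had one. The same run was found at 4465 of all 35116 starts (12.7%), at 11 of 15 starts of other TOP messages (73.3%) and at 7 of 85 starts of mitochondrial ribosomal protein genes (8.24%). A run of these letters is a description of the window and does not show that a message starts there in HL-60 cells.

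The values are RPKM (read numbers scaled by the length of the gene and by the reads of the library), which the authors rounded to whole numbers. The depth of single libraries is not known, so the error given is the standard deviation (SD) over 3 libraries. Per library, all genes sum to between 358455 and 390247 RPKM. The myeloid label was checked with 8 genes of myeloid blasts (such as MPO, the myeloperoxidase of granules), which summed to between 1514 and 1998 RPKM in each library, while 9 markers of lymphoid, erythroid, hepatic, stromal and epithelial cells summed to between 0 and 1 RPKM. Libraries with the same replicate number resemble each other among the treated groups, and the treated libraries numbered 1 stand apart from the rest in the level of short genes. For this reason every comparison is given over the groups, within each number, and without the libraries numbered 1. In bulk RNA, a difference in the share of cells of a kind and a difference in RNA per cell cannot be told apart.

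The 81 genes took 8.47% ± 0.305 (SD, n = 3) of all RPKM in untreated cells, and their levels spanned more than 2 orders of magnitude. Among the most abundant over the 12 libraries were RPL41, the shortest ribosomal protein, with a mean of 1663 RPKM, RPS2 (1486 RPKM), RPS18 (1374 RPKM) and RPS12 (1272 RPKM). The lowest genes that were tested were RPS29 (37.3 RPKM), RPS23 (36.1 RPKM), RPL39L (26.8 RPKM), RPL17 (10.8 RPKM) and RPL36A (4.42 RPKM). These means are per length, so they can be set beside each other, but they depend on the gene lengths and on how reads that match copies elsewhere were counted. In untreated cells, RPL39L (25.0 ± 2.65 RPKM), RPL17 (10.7 ± 1.15 RPKM) and RPL36A (4.33 ± 0.577 RPKM) did not overlap in their libraries, whereas RPS29 (33.7 ± 3.79 RPKM) and RPS23 (33.3 ± 3.51 RPKM) did.

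**Figure D1:**
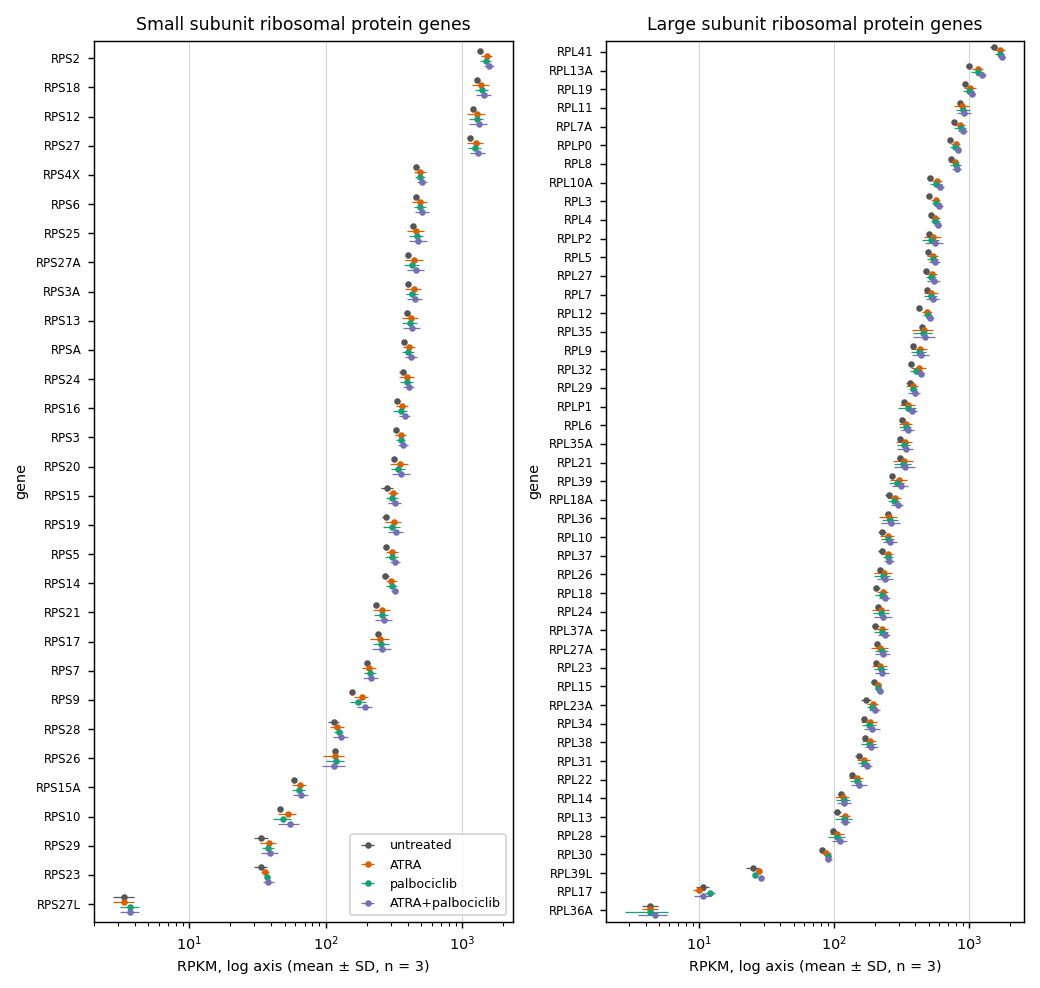
RPKM (horizontal log axis) of the ribosomal protein genes with a level above 0 that are reported here, small subunit on the left and large subunit on the right, as mean ± SD of 3 libraries per treatment. The levels plotted run from RPL41 (1663 RPKM) to RPS27L (3.5 RPKM), and the points of the 4 treatments lie close together for each gene.

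Paralogs of ribosomal proteins differed widely. RPL3, which lies at the peptidyl transferase centre, had a mean of 560.1 RPKM, while its muscle paralog RPL3L was listed at 0 in all 12 libraries, as was RPL10L, the testis paralog of RPL10 (246.8 RPKM). RPL39, at the exit tunnel, had 293.9 RPKM and its paralog RPL39L 26.8 RPKM. RPS27 had 1236 RPKM, while RPS27L, a target of p53, ranged from 3 to 4 RPKM in all libraries. RPL3L, RPL10L and RPS27L did not reach 5 RPKM in at least 3 libraries and were not tested, which leaves 78 tested genes. RPL36A reached this limit only through the 4 libraries numbered 1, with 5 or 6 RPKM, and had 3 or 4 RPKM in the other 8 libraries.

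Some of the genes overlap other annotated genes or have copies elsewhere in the genome. The readthrough genes RPL17-C18orf32, RPS10-NUDT3 and RPL36A-HNRNPH2 overlap 24.9%, 31.5% and 8.4% of the exonic bases of RPL17, RPS10 and RPL36A on the same strand. The values of these 3 genes are therefore uncertain. Of the 953 processed pseudogenes listed, 219 had a mean of at least 5 RPKM, and for 18 parent genes the pseudogenes summed above the parent. For RPS23, a protein of the decoding site, the pseudogene RPS23P8 alone had 288.9 RPKM against 36.1 RPKM in the gene, and for RPL17 the pseudogenes summed to 9.55 times the gene. Whether reads were shared with these genes and copies was not tested.

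Summed over the 81 genes, the untreated libraries numbered 1, 2 and 3 had 30470, 29919 and 32001 RPKM. The ATRA libraries had 38040, 31747 and 31185 RPKM, and the palbociclib libraries 37437, 31082 and 32028 RPKM. The combination libraries had 38972, 33478 and 32441 RPKM. The 3 treated libraries numbered 1 were the highest of all, and every combination library lay above every untreated library, whereas ATRA and palbociclib each overlapped the untreated range. The group means were 30797 ± 1079 RPKM (SD, n = 3) in untreated cells, 33657 ± 3806 RPKM with ATRA, 33516 ± 3429 RPKM with palbociclib and 34964 ± 3510 RPKM with the combination, so the differences between the means were of the size of the SD within the treated groups. As a share of all RPKM, the sums were 8.96% ± 0.765 with ATRA, 8.91% ± 0.69 with palbociclib and 9.26% ± 0.728 with the combination.

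Within a replicate number the differences from untreated cells were unequal. In number 1 the sum was 24.8% higher with ATRA, 22.9% with palbociclib and 27.9% with the combination. In number 2 the differences were 6.11%, 3.89% and 11.9%. In number 3 they were -2.55%, 0.0844% and 1.37%. Between the combination and ATRA the sum was higher in all 3 numbers, by 2.45%, 5.45% and 4.03%, and between the combination and palbociclib it was higher by 4.1%, 7.71% and 1.29%.

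**Figure D2:**
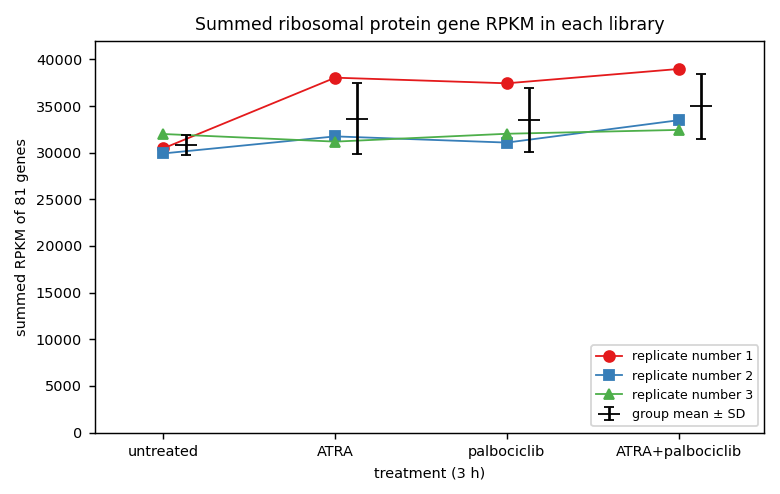
Summed RPKM of the 81 genes (vertical axis, from 0) in each library by treatment, with lines joining libraries of the same replicate number and black bars for the group mean ± SD (n = 3). The treated libraries numbered 1 lie between 37437 and 38972 RPKM, and the other 9 libraries between 29919 and 33478 RPKM.

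The first comparison asked how ATRA alone changed the genes. ATRA-treated cells had higher values than untreated cells for 75 of the 78 tested genes, with a median log2 fold change of 0.12 against -0.012 over all 7820 tested genes (45.9% of which lay above 0), and this median was positive also with libraries centred on their median (0.16) and with quantile normalization (0.051). No ribosomal protein gene was called by limma at an adjusted p-value under 0.001, where 2.77% of all tested genes were called higher and 1.94% lower. With p under 0.05 before adjustment, 2 were higher and 0 lower, against 14.1% and 19% of all tested genes. The highest values were those of RPS9 (log2 fold change 0.23 ± 0.11 (SE), limma adjusted p = 0.188), RPL13A (0.23 ± 0.095, adjusted p = 0.117) and RPL12 (0.19 ± 0.082, adjusted p = 0.136). The lowest were those of RPL17 (-0.092 ± 0.12, adjusted p = 0.649), RPS26 (-0.030 ± 0.16, adjusted p = 0.934) and RPL36A (0 ± 0.24, adjusted p = 1). Without the ATRA library numbered 1, RPS9, RPL13A and RPL12 were at 0.14, 0.15 and 0.12.

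Palbociclib inhibits entry into S phase, and the second comparison asked for its effect alone. For 76 of 78 genes the value with palbociclib was above that of untreated cells, with a median of 0.11 against 0 over all tested genes (50.3% above 0), which remained positive with centring (0.19) and quantile normalization (0.047). In limma 0 genes were called, where 0.0128% of all tested genes were called higher and 0.486% lower. With p under 0.05 before adjustment, 2 were higher and 0 lower, against 7.28% and 10.1% of all tested genes. RPL13A (0.22 ± 0.095 (SE), limma adjusted p = 0.268), RPL12 (0.20 ± 0.082, adjusted p = 0.248) and RPS29 (0.18 ± 0.13, adjusted p = 0.544) were highest. RPL36A (-0.048 ± 0.24), RPS26 (-0.0018 ± 0.16) and RPL35 (0.030 ± 0.15) were lowest, with adjusted p-values of 0.967, 1 and 0.973. Without the palbociclib library numbered 1, RPL13A, RPL12 and RPS29 were at 0.14, 0.13 and 0.10.

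The combination was compared with untreated cells next. Here 76 of 78 genes were higher, with a median of 0.17 against -0.0074 over all tested genes (47% above 0), which was 0.25 with centring and 0.084 with quantile normalization. Again 0 genes were called by limma at an adjusted p-value under 0.001, where 3.76% of all tested genes were called higher and 4.28% lower. With an adjusted p under 0.05 there were 4 higher genes and 0 lower ones (12.7% and 17.7% of all tested genes), and with p under 0.05 before adjustment 16 higher and 0 lower (17.7% and 22.8%). For 28 of the 78 genes all 3 combination libraries lay above all 3 untreated libraries, and for 0 below, against 15.3% and 20.6% of all tested genes. The corresponding numbers were 8 and 0 genes for ATRA (12.4% and 17.3% of all tested genes) and 7 and 0 for palbociclib (5.74% and 9.48%). The 3 comparisons share the untreated libraries.

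RPL13A (ENSG00000142541, chr19:49487510-49493057, plus strand) encodes a protein of the large subunit that is also known from the control of inflammatory messages. Its untreated values were 964, 968 and 1041 RPKM, those with ATRA 1291, 1110 and 1092 RPKM, those with palbociclib 1286, 1064 and 1118 RPKM and those with the combination 1353, 1205 and 1153 RPKM. Every treated library lay above every untreated library, and in each number the combination was highest. The log2 fold change between the combination and untreated cells was 0.32 ± 0.095 (SE, limma adjusted p = 0.0271), and the adjusted p ranged from 0.00654 to 0.0874 over the alternatives run.

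RPS9 (ENSG00000170889, chr19:54200809-54249003, plus strand) encodes a protein of the 40S subunit near the entry of messenger RNA. It had 155, 156 and 158 RPKM in untreated cells, 209, 176 and 168 RPKM with ATRA, 200, 161 and 161 RPKM with palbociclib and 222, 183 and 176 RPKM with the combination. The untreated values were nearly identical, and none of the treated libraries overlapped them. The log2 fold change with the combination was 0.30 ± 0.11 (SE), which did not pass (limma adjusted p = 0.0695). The adjusted p ranged from 0.00816 to 0.218 over the alternatives run, and without the combination library numbered 1 the log2 fold change was 0.20.

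RPL12 (ENSG00000197958, chr9:127447674-127451406, minus strand) lies at the base of the ribosomal stalk. Its values were 413, 431 and 442 RPKM in untreated cells and 551, 502 and 487 RPKM with the combination, without overlap, and the log2 fold change was 0.26 ± 0.082 (SE, limma adjusted p = 0.035). With ATRA it had 539, 473 and 456 RPKM and with palbociclib 538, 470 and 467 RPKM, also above all untreated libraries.

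RPL10A (ENSG00000198755, chr6:35468401-35470785, plus strand) encodes the protein of the L1 stalk, which moves with the transfer RNA that leaves the ribosome. It had 499, 493 and 534 RPKM in untreated cells and 658, 596 and 580 RPKM with the combination (0.26 ± 0.087 (SE), limma adjusted p = 0.0409). RPL3 (ENSG00000100316, chr22:39312882-39320389, minus strand) had 504, 495 and 524 RPKM in untreated cells and 641, 572 and 577 RPKM with the combination (0.23 ± 0.078 (SE), limma adjusted p = 0.0442). In both genes the groups did not overlap, and the library numbered 1 was the highest of the combination.

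RPS26 and RPL17 were at the other end. RPS26, at the exit of messenger RNA from the 40S subunit, had 121, 112 and 120 RPKM in untreated cells, 140, 106 and 103 RPKM with ATRA, 139, 111 and 105 RPKM with palbociclib and 142, 105 and 101 RPKM with the combination. The treated libraries numbered 1 lay above and all others of these groups below the untreated library of the same number, so the groups overlapped (combination against untreated -0.037 ± 0.16 (SE), limma adjusted p = 0.894). RPL17, near the exit tunnel, had 12, 10 and 10 RPKM in untreated cells and 12, 9 and 11 RPKM with the combination (-0.0047 ± 0.12 (SE), adjusted p = 1). At this level 1 RPKM is the rounding step. RPL35, also near the exit tunnel, had 451, 441 and 441 RPKM in untreated cells and 576, 419 and 421 RPKM with the combination, so that 1 library lay above and 2 below the untreated range (0.071 ± 0.15 (SE), adjusted p = 0.764).

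**Figure D3:**
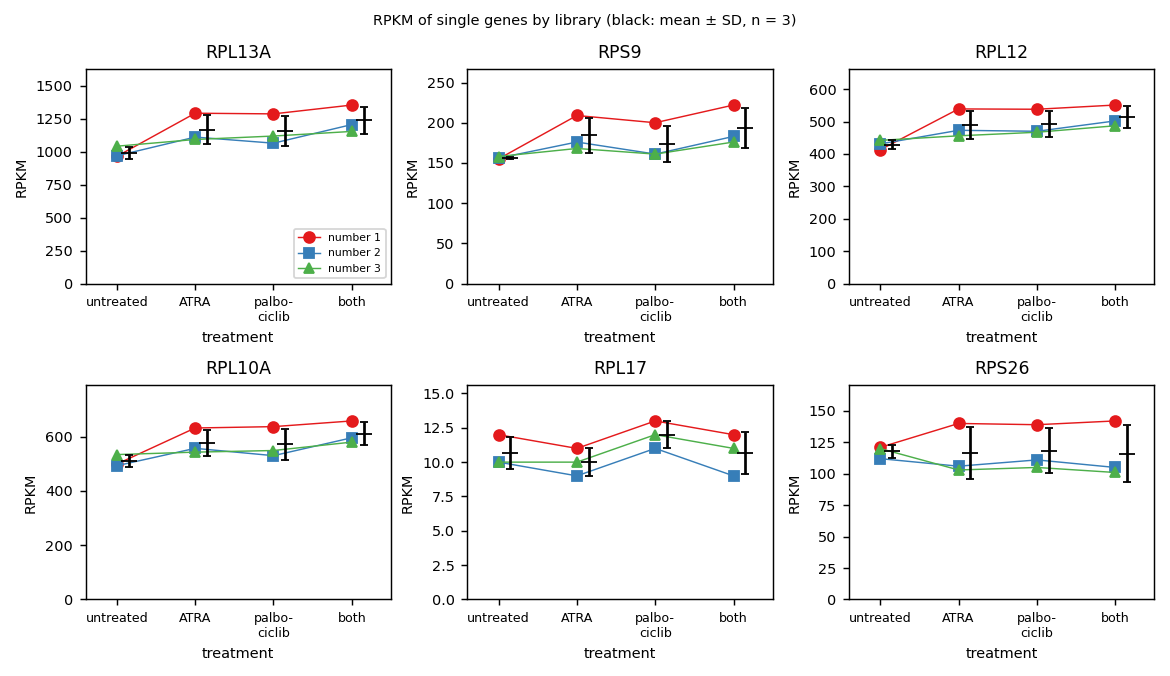
RPKM (vertical axis, from 0) of RPL13A, RPS9, RPL12, RPL10A, RPL17 and RPS26 by treatment, with 1 symbol per replicate number joined by lines and black bars for mean ± SD (n = 3). In the first 4 genes every combination library lies above every untreated library, as in RPL13A (1153 to 1353 against 964 to 1041 RPKM), whereas RPL17 and RPS26 overlap.

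The stalk genes and genes with known functions beyond the ribosome had log2 fold changes above 0 with the combination, as had 76 of the 78 genes. None of them was called. For the stalk proteins, which recruit translation factors, the log2 fold changes were 0.21 ± 0.078 (SE) for RPLP0, 0.20 ± 0.11 for RPLP1 and 0.12 ± 0.13 for RPLP2, with limma adjusted p-values of 0.0706, 0.209 and 0.534. RPL5 and RPL11, which with 5S ribosomal RNA can bind MDM2 and stabilise p53, differed by 0.15 ± 0.092 and 0.10 ± 0.11 (adjusted p = 0.244 and 0.547). RPL26, which binds p53 messenger RNA, differed by 0.13 ± 0.13 (adjusted p = 0.501), and RPS6, the classical substrate of S6 kinase, by 0.16 ± 0.11 (adjusted p = 0.313). RPSA, also known as the laminin receptor, differed by 0.18 ± 0.097 (adjusted p = 0.198), and RPS27A, which is made as a fusion with ubiquitin, by 0.18 ± 0.13 (adjusted p = 0.304). Of these 9 and RPL22 (0.18 ± 0.11, adjusted p = 0.252) and RPS4X (0.15 ± 0.095, adjusted p = 0.278), the combination libraries lay wholly above the untreated libraries for RPLP0, RPLP1, RPL5 and RPS27A. The same held for 28 of the 78 genes and for 15.3% of all tested genes. Both subunits had close medians, 0.18 over 31 small subunit genes and 0.17 over 47 large subunit genes.

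Within replicate numbers the genes moved together but by unequal amounts. With ATRA, 76, 67 and 11 of the 78 genes were higher than in the untreated library of the same number in numbers 1, 2 and 3, with medians of 0.32, 0.081 and -0.048 on the log2 scale. Of all tested genes, 43.8%, 36.9% and 33.9% were higher, with equal values counted as not higher. In number 3 with ATRA the ribosomal protein genes lay below this share, at 14.1%. With palbociclib, 78, 64 and 28 genes were higher (43.5%, 33.4% and 38.2% of all tested genes), with medians of 0.28, 0.056 and -0.010. With the combination, 77, 73 and 36 were higher (44.4%, 39.6% and 36.8% of all tested genes), with medians of 0.35, 0.15 and 0. The difference from untreated cells was thus largest in number 1, and in number 3 it was near 0 or below. Higher in all 3 numbers were 11 genes with ATRA (17.8% of all tested genes), 27 with palbociclib (12.7%) and 35 with the combination (21%), and 0 genes were lower in all 3 in any of these comparisons (24.1%, 14.6% and 26.6% of all tested genes).

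Without the libraries numbered 1, the median over the genes was 0.021 with ATRA (51 of 78 above 0), 0.023 with palbociclib (53 above 0) and 0.077 with the combination (68 above 0). Of the 78 genes, 0 then had an adjusted p-value under 0.001 in any comparison. With an adjusted p under 0.05 there were 8 higher genes and 1 lower with the combination, where 13.7% of all tested genes were higher and 19.6% lower. The lower gene was RPL35 (-0.070, limma adjusted p = 0.0324). With ATRA RPS9 was higher and RPL35 lower at this threshold (10.5% and 14.8% of all tested genes), and with palbociclib 0 genes passed (2.62% and 3.82%). With the combination, RPL13A was at 0.23 (limma adjusted p = 0.0222), RPS9 at 0.19 (adjusted p = 0.0109) and RPL12 at 0.18 (adjusted p = 0.00971).

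**Figure D4:**
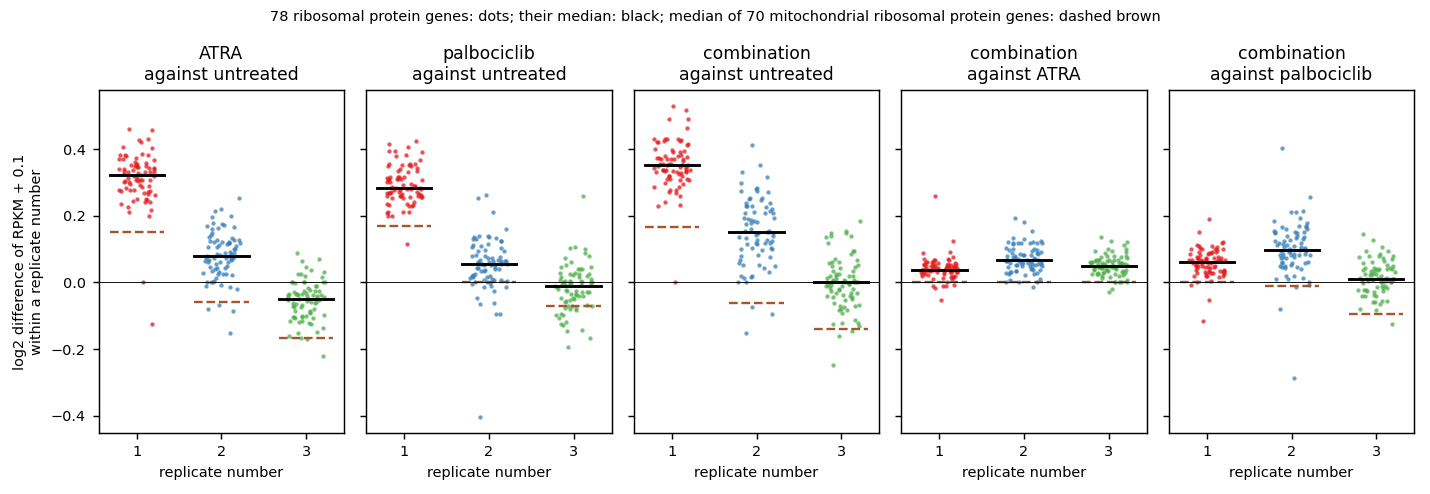
Log2 difference of RPKM + 0.1 within a replicate number (vertical axis) for 78 ribosomal protein genes (dots) in 5 comparisons, with black bars for their median and dashed lines for the median of 70 mitochondrial ribosomal protein genes. Against untreated cells the medians drop from number 1 (0.32, 0.28 and 0.35) to number 3 (-0.048, -0.010 and 0), and between the combination and ATRA they are 0.039, 0.068 and 0.049.

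Other short genes also differed in number 1. Among tested protein-coding genes that are neither ribosomal protein genes nor their pseudogenes, 438 genes with a canonical transcript under 1000 bases had a median difference of 0.26 between ATRA and untreated cells in number 1, and 90.4% of them were higher. The median was 0.13 for 1332 genes of 1000 to under 2000 bases, 0 for 2401 genes of 2000 to under 4000 bases and -0.26 for 2237 genes of 4000 bases or more. In numbers 2 and 3 the medians of the shortest class were 0.014 and -0.075. Palbociclib (0.26) and the combination (0.28) gave like values for the shortest class in number 1. Of the ribosomal protein genes, 45 under 1000 bases had a median of 0.33 and 33 longer ones one of 0.30 in the same comparison of ATRA in number 1. In this comparison the longer ribosomal protein genes lay above the other genes of 1000 bases or more in all 3 of their length classes. The same order held in number 1 with palbociclib (longer ribosomal protein genes at 0.282) and the combination (0.337). It also held in number 2 with ATRA (0.0779), palbociclib (0.0625) and the combination (0.162). In number 3 with ATRA this order did not hold. The longer ribosomal protein genes had a median of -0.042 there, and the 3 classes had -0.059, 0 and 0. In number 3 with palbociclib the order did not hold either (-0.00282 against 0, 0 and 0). In number 3 with the combination it held narrowly (0.00167 against -0.0314, 0 and 0). The part of transcript length in the difference from untreated cells was not tested.

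**Figure D5:**
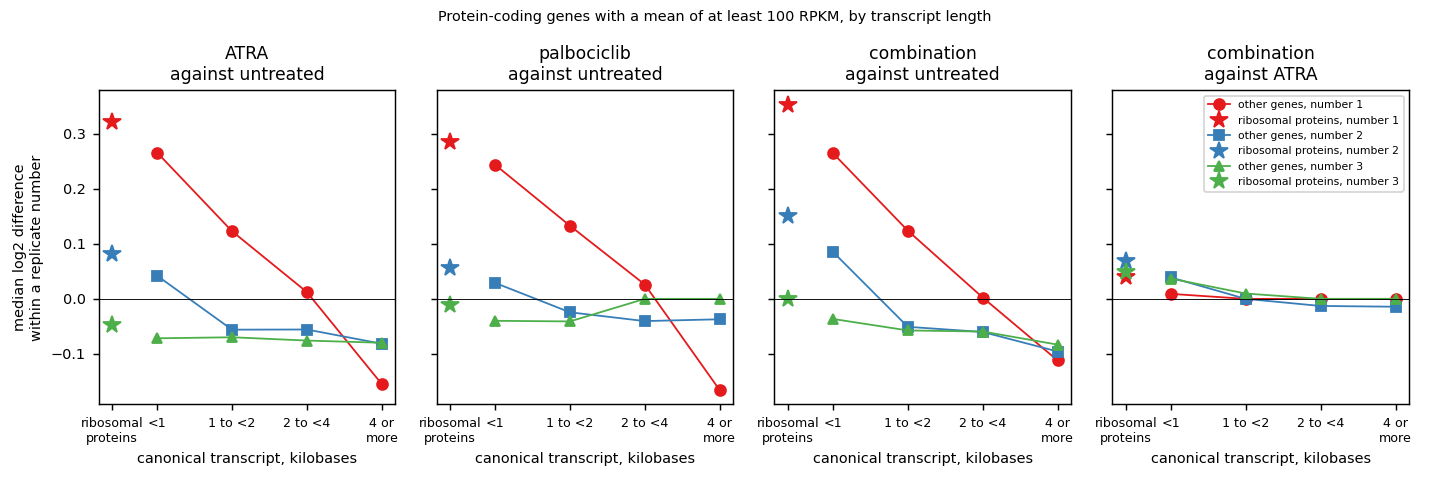
Median log2 difference within a replicate number (vertical axis) for ribosomal protein genes (stars) and for other protein-coding genes with a mean of at least 100 RPKM, by canonical transcript length (73, 95, 76 and 17 genes per class). In number 1 the other genes fall from 0.27 in the shortest class to -0.16 in the longest with ATRA, and the ribosomal protein genes lie above the shortest class with 0.32.

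The combination was compared with ATRA to ask what palbociclib adds. For 77 of 78 genes the value with the combination was higher, with a median of 0.052 against 0 over all tested genes (45.4% above 0), which was 0.091 with centring and 0.028 with quantile normalization. In limma 0 genes were called, as were 0% of all tested genes, and 0 had p under 0.05 before adjustment (0.563% of all tested genes higher and 3.11% lower). For 0 genes did the groups not overlap (0.87% of all tested genes higher and 2.52% lower). Within the numbers, 71, 74 and 71 of 78 genes were higher (28.6%, 28.5% and 31.7% of all tested genes), with medians of 0.039, 0.068 and 0.049. In all 3 numbers 63 genes were higher and 0 lower (11.3% and 11.6% of all tested genes). The difference was as large without the libraries numbered 1 (median 0.062, 76 of 78 above 0), where 0 genes had an adjusted p under 0.05 (0.512% of all tested genes higher and 0.908% lower). Other genes under 1000 bases with a mean of at least 100 RPKM had medians of 0.0091, 0.039 and 0.037 in the 3 numbers, and 70 mitochondrial ribosomal protein genes had 0 in each.

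Since same-numbered treated libraries deviated together, the replicate number was also fitted as a block. With the block over all 12 libraries, 0 ribosomal protein genes differed between the combination and ATRA at an adjusted p-value under 0.05 (0.0128% of all tested genes higher and 0.639% lower) or with p under 0.05 before adjustment (2.44% and 5.78%). With the block over the 9 treated libraries, a fit chosen after seeing the data, 0 ribosomal protein genes then had an adjusted p-value under 0.05, where 0.575% of all tested genes were higher and 1.83% lower, while 28 were higher with p under 0.05 before adjustment and 0 were lower (6.64% and 9.82% of all tested genes). The pairing thus changed no call. RPLP1 had 403, 326 and 328 RPKM with ATRA and 414, 370 and 352 RPKM with the combination, which is higher in each number, but the groups overlapped (0.11 ± 0.11 (SE), limma adjusted p = 1). It was followed by RPL13A (0.088) and RPS28 (0.087), and RPS26 (-0.0072), RPL13 (0.0046) and RPL35A (0.026) were lowest, all with an adjusted p of 1. With 1 library left out, RPLP1 ranged from 0.042 to 0.21 and RPL13A from 0.022 to 0.17. Without the combination library numbered 1 the median over the genes was -0.033 and without the ATRA library numbered 1 it was 0.15, since each then sets libraries of unlike numbers against each other.

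Against palbociclib, 76 of 78 genes were higher with the combination, with a median of 0.060 against 0 over all tested genes (45.5% above 0), and this was 0.060 with centring and 0.031 with quantile normalization. Of the 78 genes 0 were called by limma, where 2.11% of all tested genes were called higher and 0.997% lower, and 0 had p under 0.05 before adjustment (10.3% higher and 13.5% lower). In numbers 1, 2 and 3 the medians were 0.063, 0.098 and 0.012, with 74, 73 and 50 genes higher (36.2%, 38.4% and 33.5% of all tested genes). In all 3 numbers 45 genes were higher (18.7% of all tested genes) and 1 lower (23%), RPL17. Without the libraries numbered 1 the median was 0.055 and 72 of 78 genes lay above 0. RPS9 was then the 1 gene with an adjusted p-value under 0.05 (0.16, limma adjusted p = 0.0328), where 7.88% of all tested genes were higher and 10.9% lower. With the replicate block over all 12 libraries, 0 genes had an adjusted p under 0.05 (10.1% of all tested genes higher and 13.4% lower), and with p under 0.05 before adjustment 0 were higher and 1 lower (14.5% and 19.9%). With the 9 treated libraries and the replicate block, 0 genes were called at 0.001, and at an adjusted p-value under 0.05 there were 19 higher and 1 lower, where 15.7% of all tested genes were higher and 20.3% lower. With p under 0.05 before adjustment, this fit gave 36 higher and 1 lower, against 20.2% and 25.7% of all tested genes.

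RPS10 was highest, with 57, 44 and 44 RPKM under palbociclib and 65, 51 and 47 RPKM under the combination (0.17 ± 0.14 (SE), limma adjusted p = 0.588, and 0.00689 with the block over 9 libraries). RPS9 differed by 0.15 (adjusted p = 0.497, and 0.0026 with that block). Without the combination library numbered 1, RPS10 was at 0.030 and RPS9 at 0.052, and without the palbociclib library numbered 1 they were at 0.29 and 0.26. RPL39L, a paralog found in testis and in many cell lines, had 27, 25 and 26 RPKM with palbociclib and 29, 29 and 28 RPKM with the combination, the only 1 of the 78 genes whose groups did not overlap here (8.26% of all tested genes higher and 9.86% lower). Its log2 difference was 0.14 (adjusted p = 0.283, and 0.0156 with that block). RPL17 was lowest, with 13, 11 and 12 RPKM against 12, 9 and 11 RPKM (-0.18, adjusted p = 0.461, and 0.0235 with that block), followed by RPS26 (-0.035) and RPL30 (0.0046). With 1 library left out, RPL17 ranged from -0.26 to -0.059. Within the numbers RPL39L and RPL17 differed by only 1 to 4 RPKM, at a rounding step of 1 RPKM.

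The departure from additivity is the log2 difference of combination and ATRA less that of palbociclib and untreated cells. Of the 78 genes, 5 lay above 0, with a median of -0.056 against 0 over all tested genes (48.3% above 0). In limma 0 genes were called, as were 0% of all tested genes, and 0 had p under 0.05 before adjustment (1.97% of all tested genes above and 1.05% below 0). The lowest were RPL13 (-0.15 ± 0.15 (SE)), RPS29 (-0.14 ± 0.18) and RPL13A (-0.13 ± 0.13), and the highest RPL36A (0.13 ± 0.34), RPLP1 (0.028 ± 0.16) and RPL36 (0.0060 ± 0.19), all with an adjusted p of 1. With 1 library left out, RPL13 ranged from -0.22 to -0.041, RPS29 from -0.24 to -0.036 and RPL13A from -0.20 to -0.051. The median was -0.25 in number 1, 0.014 in number 2 and 0.063 in number 3, and without number 1 it was 0.041, so its sign rested on those libraries.

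Genes that work beside the ribosomal proteins did not share one direction. Other TOP messages comprised 17 tested genes with medians of 0.026 with ATRA, 0.048 with palbociclib and 0.063 with the combination against untreated cells, 0.035 between the combination and ATRA and 0.032 between the combination and palbociclib. None of them was called by limma at 0.001. With the combination against untreated cells 2 were higher and 0 lower with p under 0.05 before adjustment (17.7% and 22.8% of all tested genes). EEF2, the translocase of elongation, was highest with the combination (0.31 ± 0.065 (SE), limma adjusted p = 0.00474), followed by EEF1A1, which delivers transfer RNA (0.23 ± 0.060, adjusted p = 0.0151), and NPM1, a nucleolar chaperone (-0.10, adjusted p = 0.533), and EEF1D (-0.063, adjusted p = 0.689) were lowest. Of 20 other initiation factors, with a median of -0.093 with the combination, EIF3J passed and fell by 0.41 ± 0.060 on the log2 scale (limma adjusted p = 0.000509). EIF4E, which binds the cap, did not pass at -0.44 (adjusted p = 0.00103), and EIF1 (0.30) and EIF3G (0.16) were highest.

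The 70 tested mitochondrial ribosomal protein genes had medians of -0.017 with ATRA, 0.024 with palbociclib and -0.018 with the combination against untreated cells, and 0 were called by limma. For the combination 6 were higher and 11 lower with p under 0.05 before adjustment (17.7% and 22.8% of all tested genes). Within number 1 they were higher as well, with medians of 0.15, 0.17 and 0.17 (the dashed lines in the plot of differences by number). Without the libraries numbered 1 their medians were -0.115, -0.038 and -0.115. In limma, 2 were then higher and 19 lower with the combination at an adjusted p under 0.05 (13.7% and 19.6% of all tested genes). MRPS6 (0.45, adjusted p = 0.014) and MRPS18A (0.35, adjusted p = 0.00875) were highest and MRPS26 (-0.49, adjusted p = 0.0189) and MRPL50 (-0.35, adjusted p = 0.0545) lowest with the combination. The 13 mitochondrially encoded messages had a median of 0.066 with the combination, from MT-ND6 at 0.22 and MT-CO2 at 0.15 down to MT-ATP8 at -0.073 and MT-ND4L at -0.15. Of the 13, 0 were called by limma or had p under 0.05 before adjustment (17.7% of all tested genes higher and 22.8% lower).

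Ribosomal protein genes outside the rule (6 genes) include FAU, which is made as a fusion with a ubiquitin-like protein, and the paralogs RPL36AL, RPL22L1, RPL26L1 and RPL7L1. With the combination the median of the 6 genes was 0.032, and FAU was at 0.15 (limma adjusted p = 0.345). RPL22L1 (-0.19, adjusted p = 0.618) and RPL7L1 (-0.26 ± 0.048 (SE), adjusted p = 0.00217) were lowest, and 0 of 6 were called. With p under 0.05 before adjustment 0 were higher and 1 lower (17.7% and 22.8% of all tested genes). MYC fell by 1.18 ± 0.18 on the log2 scale with ATRA (limma adjusted p = 0.000922) and by 1.18 ± 0.18 with the combination (adjusted p = 0.000612), and was at -0.023 with palbociclib (adjusted p = 1). At the same 3 h, 75 and 76 of the 78 ribosomal protein genes had values above those of untreated cells with ATRA and with the combination. Within number 3 these counts were 11 and 36, and they were 51 and 68 without the libraries numbered 1. A link to MYC was not tested.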

How the data were processed

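RNA of HL-60 cells was sequenced in 12 libraries, 3 per treatment. The authors prepared poly(A) libraries (TruSeq), used HISAT2 for mapping to hg38 and htseq-count for counting, and tested counts with voom in Degust. The counts were not analysed here. The deposited values are RPKM that the authors rounded to whole numbers, treated here as a score with a step of 1. All 12 columns were mapped to samples by their labels. Depth per library is not given in the sources used here.

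Genes with at least 5 RPKM in at least 3 libraries (7820) were tested with limma 3.58.1 in R 4.3.3 on log2(RPKM + 0.1), with 1 mean per group over all 12 libraries, eBayes with trend and Benjamini-Hochberg adjustment over all tested genes, and were called at an adjusted p-value under 0.001. The pseudocount understates changes of low genes. Tables and plots used Python 3.11.15. The script was tested on simulated data. No 2 libraries held identical values for these genes.

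The labels do not say what a replicate number shares. Deviations of same-numbered libraries from their group means correlated at 0.438 to 0.908 between treated groups, where a block was therefore also fitted.

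The genes and lists were chosen with earlier results of these data known. Named are the 3 highest and 3 lowest log2 fold changes per comparison, the 5 highest and 5 lowest levels, paralogs, stalk genes, genes with known other functions, genes that share a locus with a readthrough gene, the 2 highest and 2 lowest genes of each other list, and MYC. RPL3 was named also because its adjusted p-value was under 0.05, which was chosen after its values were seen.

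A few genes that this rule names are not reported here, though they are part of the counts, sums and medians.

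Alternatives were other filters, a pseudocount of 1, the replicate block, only the 6 libraries compared, centring, quantile normalization, no trend, a threshold of 0.05 and leaving out libraries.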

Additional observations from a re-analysis of the deposited data

How the results depend on the processing

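The count of ribosomal protein genes called at an adjusted p-value under 0.001 was 0 in each of the 6 comparisons under every alternative that kept this threshold, including each library left out in turn (lowest 0, highest 0). With a threshold of 0.05 it was 4 for the combination against untreated cells. Between untreated and treated libraries of the same number, deviations correlated at 0.0453 to 0.367, which is weaker than between treated groups. What these libraries share beyond the number is not known. With the replicate block and a threshold of 0.05 the counts were 4 for ATRA and 23 for the combination against untreated cells, all higher (14.7% and 19.8% of all tested genes were higher). With the block at 0.001 no count changed (0 in each). The blocked fits with a threshold of 0.05, the 9 treated libraries alone and the fits without replicate 1 of every group were chosen after seeing the data.

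The median for the combination against ATRA was 0.0906 with libraries centred on their median and 0.0281 with quantile normalization. With 1 library left out, this median ranged from -0.033 to 0.149, that against palbociclib from -0.029 to 0.142, and the percent differences of the sums from -2.07 to 11.1 and from -1.66 to 10.8. The medians against untreated cells stayed above 0 (0.0249 to 0.162 for ATRA, 0.0296 to 0.162 for palbociclib, 0.0825 to 0.224 for the combination), and the departure from additivity ranged from -0.144 to 0.0372.

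Single genes near 0 changed sign, and the cause was not tested. Centring gave, against untreated cells, RPS26 0.00842 with ATRA, 0.0745 with palbociclib and 0.0395 with the combination, RPL36A 0.028 with palbociclib and RPL17 0.0716 with the combination; it gave RPS26 0.031 between the combination and ATRA, and -0.0322 for RPL36 and -0.0104 for RPLP1 in the departure from additivity. Quantile normalization gave RPL35 -0.0377 with palbociclib and -0.0289 with the combination, RPL13 -0.0283 and RPL35A -0.00182 against ATRA and RPL30 -0.00641 against palbociclib. Without replicate 1 of every group, RPL35 was at -0.0825 and -0.0704 and RPL30 at -0.00805. With 1 library left out, the ranges against untreated cells were, for RPS26, -0.17 to 0.0509 with ATRA, -0.123 to 0.0789 with palbociclib and -0.191 to 0.0543 with the combination, for RPL35 -0.0933 to 0.0974 and -0.0812 to 0.148 with palbociclib and the combination, for RPL36A -0.307 to 0.182 with palbociclib and for RPL17 -0.094 to 0.112 with the combination. Against ATRA they were -0.162 to 0.133 for RPS26, -0.064 to 0.0809 for RPL13, -0.0801 to 0.129 for RPL35A and -0.00865 to 0.181 for RPS28, and against palbociclib -0.189 to 0.0863 for RPS26 and -0.0449 to 0.0418 for RPL30. In the departure from additivity they were -0.121 to 0.132 for RPL36, -0.0955 to 0.393 for RPL36A and -0.0548 to 0.141 for RPLP1. Rounding to 1 RPKM and the unknown depth of single libraries limit the low genes RPL17, RPL36A and RPL39L, and replicates whose origin is not labelled limit every p-value.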

Other observations

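Pseudogenes of the ribosomal protein genes had medians close to those of their parents. The 238 tested pseudogenes had median log2 fold changes of 0.13 with ATRA, 0.11 with palbociclib and 0.17 with the combination against untreated cells, and 0.044 between the combination and ATRA, beside 0.12, 0.11, 0.17 and 0.052 for the genes themselves. Of the 238, 0 were called by limma at an adjusted p-value under 0.001 in any of these 4 comparisons. With the combination against untreated cells 52 were higher and 0 lower with p under 0.05 before adjustment (17.7% and 22.8% of all tested genes). Within number 1 their median with ATRA was 0.32, as in the genes, and in number 3 it was -0.035. The summed RPKM of all 953 pseudogenes was between 42.5 and 43.8 per 100 RPKM of the genes in each of the 12 libraries. The share of reads assigned to a copy instead of the gene was not tested.

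Across the 12 libraries, the log2 value of a gene and the mean of the other 77 tested genes had a Pearson correlation of between 0.424 (RPL17) and 0.994 (RPL5). This is a description only. The libraries differ in treatment, and the treated libraries numbered 1 stood apart in the sum of these genes. The median residual SD on the log2 scale was 0.146 over the 78 genes, 0.134 over all tested genes and 0.114 over 402 other genes with a mean of at least 100 RPKM. RPL10 had its pseudogenes at 1.43 times its own level, RPL12 at 1.43 times and RPSA at 2.88 times. Those of RPS26 and RPS10 summed to 2.63 and 1.48 times the gene. For RPL3, RPL13A, RPL10A and RPS9 the ratios were lower, at 0.735, 0.516, 0.000441 and 0.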
